A study of Mus musculus with 27 samples.

Results

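The 6 Iroquois homeobox genes of the mouse lie in 2 clusters, IrxA on chromosome 13 (*Irx1*, *Irx2* and *Irx4*) and IrxB on chromosome 8 (*Irx3*, *Irx5* and *Irx6*). To describe H3K4 methylation at these genes, every region of the merged list of H3K4me1, H3K4me2 and H3K4me3 peaks was taken that overlapped an Irx gene or lay within 50 kb of one of its annotated transcription start sites (TSS). This gave 99 of 358833 regions, 48 in IrxA and 51 in IrxB. The genes run at chr13:72095680-72101171 (*Irx1*), chr13:72766245-72771644 (*Irx2*), chr13:73397945-73407068 (*Irx4*), chr8:94322428-94325553 (*Irx3*), chr8:94881695-94885351 (*Irx5*) and chr8:95198188-95204855 (*Irx6*) in assembly NCBIM37 (mm9), with *Irx1* and *Irx3* on the minus strand. A region was counted as decreased where the authors' list of lower H3K4me1 or lower H3K4me2 in mutant hearts held a region with the same start and end.

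The study profiled whole mouse hearts at embryonic day E11.5 by ChIP-Seq on a C57BL/6 background. Controls were Tnnt2::Cre; Kmt2d fl/+ and mutants Tnnt2::Cre; Kmt2d fl/fl. Cre was thus present in both genotypes, as was 1 copy of the mTmG reporter by the crosses the labels describe, and the control hearts also carried 1 floxed *Kmt2d* allele. There were 3 pools of 30 hearts per genotype, each divided into an input and immunoprecipitations for the 3 marks, which makes 24 of the 27 libraries of the series. The other 3 libraries, KMT2D ChIP-Exo from cardiomyocytes grown in culture, were not analysed here. Cre was driven by the *Tnnt2* promoter, which is active in heart muscle cells, so the other cells of a whole heart kept *Kmt2d*. In such bulk tissue, fewer cells of a type and less of a mark per cell cannot be told apart. The deposited lists hold positions only and join all replicates. No signal, depth or replicate value stands behind any region, so no difference between pools could be measured, and a region outside a decreased list may still have changed.

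Iroquois proteins are transcription factors of the TALE homeobox class, and the clusters arose by duplication, so that *Irx1* and *Irx3*, *Irx2* and *Irx5*, and *Irx4* and *Irx6* are paralogous pairs. In the heart *Irx4* is known for its restriction to ventricular muscle, *Irx3* for its role in the trabecular and conduction myocardium, and *Irx5* for repression of the potassium channel gene *Kcnd2* across the ventricular wall. KMT2D is a methyltransferase for lysine 4 of histone H3. H3K4me1 is typical of enhancers, H3K4me3 of promoters, and H3K4me2 of both.

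Of the 99 Irx regions, 3 were in the decreased H3K4me2 list and 3 in the decreased H3K4me1 list, with none in both. The H3K4me2 regions lay over the TSS of *Irx3*, *Irx4* and *Irx5*. The H3K4me1 regions lay between genes, a pair of them downstream of *Irx4* and the third upstream of *Irx6*. The DNA directly upstream of the 3 TSS is printed first, because it is the promoter sequence inside the regions with lower H3K4me2. Each run is 300 bases of NCBIM37 (mm9), 5′ to 3′ on the strand of the gene, ending at the base before the TSS, and the capitals mark CpG dinucleotides. The windows are chr8:94325554-94325853 for *Irx3*, chr13:73397645-73397944 for *Irx4* and chr8:94881395-94881694 for *Irx5*.
Irx3, minus strand: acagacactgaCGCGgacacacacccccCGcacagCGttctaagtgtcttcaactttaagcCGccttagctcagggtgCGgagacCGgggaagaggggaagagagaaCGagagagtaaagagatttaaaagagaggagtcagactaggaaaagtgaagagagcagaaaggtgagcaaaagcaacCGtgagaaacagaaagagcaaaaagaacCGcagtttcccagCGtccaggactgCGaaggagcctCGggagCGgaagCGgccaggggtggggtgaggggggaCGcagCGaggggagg
Irx4, plus strand: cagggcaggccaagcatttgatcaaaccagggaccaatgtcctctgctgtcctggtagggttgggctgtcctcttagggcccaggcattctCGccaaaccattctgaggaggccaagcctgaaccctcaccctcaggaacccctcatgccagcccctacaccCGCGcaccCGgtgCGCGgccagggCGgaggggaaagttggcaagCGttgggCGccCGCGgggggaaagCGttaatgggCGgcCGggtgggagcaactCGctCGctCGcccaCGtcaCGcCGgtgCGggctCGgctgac
Irx5, plus strand: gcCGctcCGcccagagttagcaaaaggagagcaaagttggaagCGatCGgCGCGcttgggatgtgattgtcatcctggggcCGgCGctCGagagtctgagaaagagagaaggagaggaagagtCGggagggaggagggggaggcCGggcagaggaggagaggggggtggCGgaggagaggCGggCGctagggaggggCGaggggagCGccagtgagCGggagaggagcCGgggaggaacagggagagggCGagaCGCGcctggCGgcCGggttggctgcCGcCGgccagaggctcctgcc

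The regions with lower H3K4me1 are shown for contrast. For the *Irx4* regions the middle 300 bases are given, at chr13:73414756-73415055 and chr13:73427076-73427375, and for *Irx6* the whole region, 180 bases at chr8:95193506-95193685. All are on the plus strand, again with CpG in capitals.
Irx4 downstream region, nearer: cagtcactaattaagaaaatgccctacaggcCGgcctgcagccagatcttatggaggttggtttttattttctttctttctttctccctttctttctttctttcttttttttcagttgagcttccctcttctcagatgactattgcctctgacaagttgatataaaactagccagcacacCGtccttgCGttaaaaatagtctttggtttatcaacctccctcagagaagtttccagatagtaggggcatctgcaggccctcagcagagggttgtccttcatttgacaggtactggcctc
Irx4 downstream region, farther: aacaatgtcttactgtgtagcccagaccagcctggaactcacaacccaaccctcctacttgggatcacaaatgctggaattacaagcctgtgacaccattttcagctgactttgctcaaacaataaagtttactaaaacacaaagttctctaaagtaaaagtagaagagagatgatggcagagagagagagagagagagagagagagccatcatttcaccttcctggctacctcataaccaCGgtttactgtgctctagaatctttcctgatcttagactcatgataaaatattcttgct
Irx6 upstream region: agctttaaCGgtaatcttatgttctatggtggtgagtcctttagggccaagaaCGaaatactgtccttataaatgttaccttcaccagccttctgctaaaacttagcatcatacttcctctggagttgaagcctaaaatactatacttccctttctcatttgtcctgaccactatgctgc

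The promoter windows held 17 CpG for *Irx3*, 22 for *Irx4* and 25 for *Irx5*, against a median of 9 over the same windows of 22361 protein-coding genes. Their GC content was 56.3%, 66.3% and 69.3%, with a median of 53.3% over those genes. The windows from the H3K4me1 regions held 3, 1 and 2 CpG and had a GC content of 43.7%, 41.7% and 40.6%. CpG-rich promoter sequence was not particular to the genes with lower H3K4me2. *Irx1* had 27 CpG and *Irx2* 23 in the same window, and neither TSS region was in a decreased list. *Irx6*, also in neither list, had 8.

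**Figure D1:**
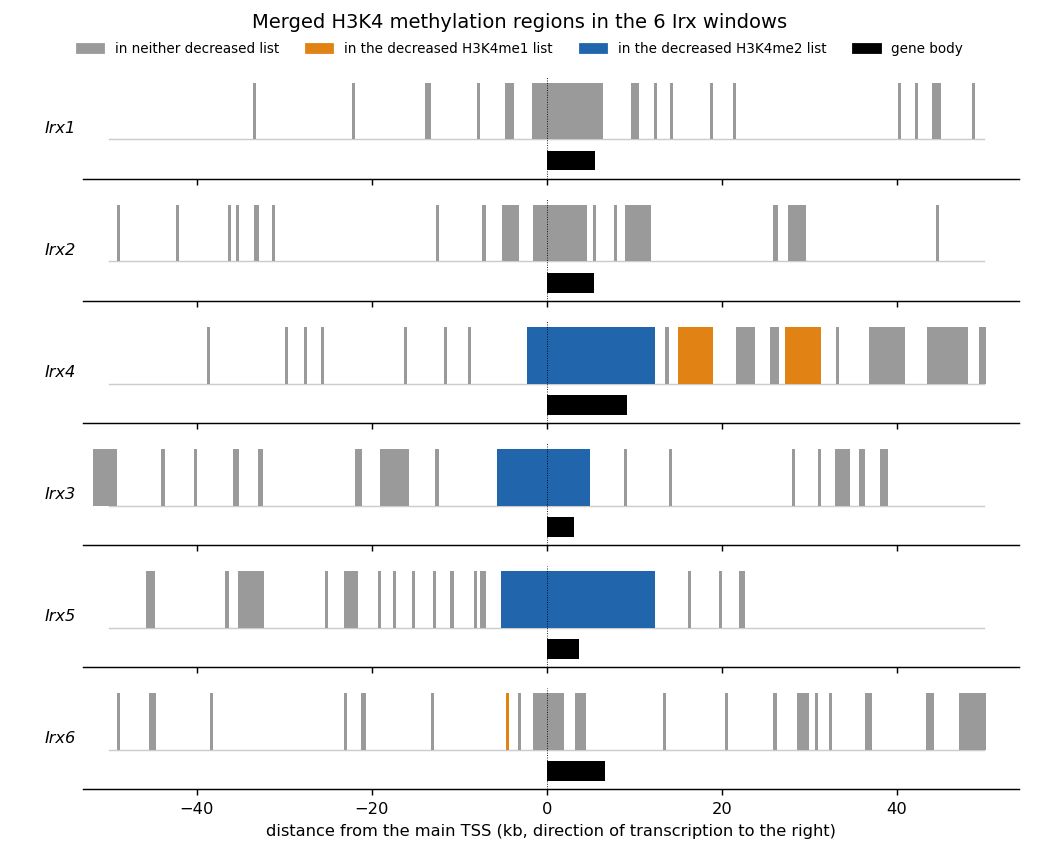
The 50 kb on either side of the main TSS of each Irx gene (kb, direction of transcription to the right), with merged regions as upright bars coloured by decreased list and the gene body as a black bar. Bars under 0.35 kb are drawn at that width to be visible, and a region that crosses the window's edge is drawn whole. Blue bars over the TSS stand at *Irx4*, *Irx3* and *Irx5*, and the orange bars stand downstream of *Irx4* and upstream of *Irx6*.

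By count, the Irx regions stood in the decreased lists at 3.03% for each mark (3 of 99, 95% Wilson interval 1.04% to 8.53%). Over all merged regions the share was 0.761% for H3K4me1 and 1.87% for H3K4me2. The interval holds the H3K4me2 background, and its lower end lies just above that of H3K4me1. It treats neighbouring regions as independent, which they are not. Wide regions were in the lists more often throughout the genome. At the shares of their own width classes, 0.983 of the 99 regions would stand in the H3K4me1 list and 3.03 in the H3K4me2 list. The H3K4me2 count of 3 was close to that figure, but all 3 regions lay over a main TSS. The 93 regions elsewhere had 0, with 1.71 at the shares of their classes. These class shares pool regions over TSS with all others. The parts of width and place in the count were not tested. By length, regions with lower H3K4me2 made up 33.2% of the 129240 bp covered near Irx genes, against 9.09% of all merged base pairs, and regions with lower H3K4me1 made up 6.36% against 2.49%. These shares by length are not matched for width. The 33.2% came from 3 regions alone, each of 8000 bp or more, a class with 27.1% of regions in the H3K4me2 list genome-wide.

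Most Irx regions were narrow. The median width was 300 bp (quartiles 100 and 980 bp), close to the 320 bp of all merged regions (100 and 900 bp), and 25 of the 99 were at least 1 kb wide. By place, 6 regions lay over the main TSS of an Irx gene, 5 over other exons, 6 in introns and 82 between genes. The 6 intronic regions and 3 of the exonic ones lay in *4933436C20Rik*, a coding gene beside *Irx5* on the opposite strand. Numbers of regions were alike, with 15 for *Irx1*, 16 each for *Irx2*, *Irx3* and *Irx5*, 17 for *Irx4* and 19 for *Irx6*. The median over 22367 protein-coding genes by the same rule was 20 (quartiles 13 and 26). At the edge of the 50 kb windows, the farthest region inside began 44850 bp (*Irx5*) to 49421 bp (*Irx4*) from the TSS and the nearest outside 50148 bp (*Irx3*) to 53458 bp (*Irx6*), all of them in neither list.

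The genes differed more in covered length than in number. Regions covered 36.6% of the *Irx4* window, 26.6% of that of *Irx5*, 21.3% of *Irx3*, 14.6% of *Irx2*, 14.4% of *Irx6* and 12.9% of *Irx1*. *Irx4*, with 36860 bp, stood at the 78.3rd percentile of protein-coding genes, whose median was 19900 bp. The other members lay between the 34.4th percentile for *Irx1* and the 62.7th for *Irx5*. The TSS region alone made up 66.2% of the covered length at *Irx5* and 62.7% at *Irx1*, but 39.6% at *Irx4* and 24.2% at *Irx6*.

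**Figure D2:**
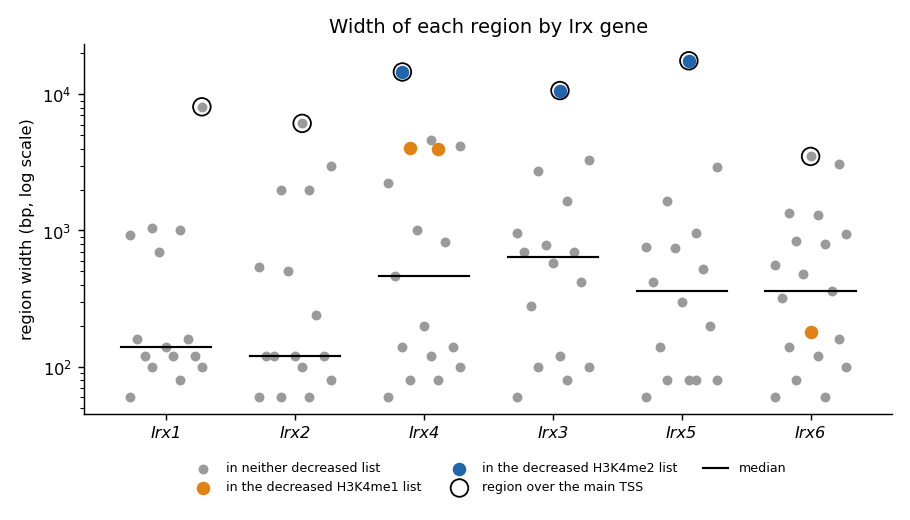
Width of each of the 99 regions (bp, log scale) by Irx gene, with the median as a line, the region over the main TSS ringed and colours for the decreased lists. Each gene's widest region is the one over its TSS, from 3500 bp at *Irx6* to 17640 bp at *Irx5*, and the 3 widest are those in the decreased H3K4me2 list.

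The main TSS of every Irx gene lay inside a merged region, and that region was the widest of each gene. For *Irx5* it was 17640 bp wide (chr8:94876426-94894065), a width that the main TSS region reached or passed in only 225 of the 15066 coding genes with one (a region shared by several genes counts for each). It ran from 5269 bp upstream to 12370 bp downstream of the TSS and covered the whole gene and the TSS of *4933436C20Rik*. For *Irx4* it was 14600 bp (chr13:73395706-73410305), from 2239 bp upstream to 12360 bp downstream, and 412 coding genes had one as wide. For *Irx3* it was 10660 bp (chr8:94320626-94331285). It reached 5732 bp upstream of the TSS and 4927 bp downstream, and 956 coding genes had one as wide. The main TSS of the long noncoding RNA *D230002A01Rik*, on the opposite strand, also lay inside it, within the *Irx3* gene. These 3 regions had lower H3K4me2 in mutant hearts by the authors' list, and each covered 100% of its gene. At *Irx3* and *Irx5*, methylation that belongs to the gene and to the neighbouring transcript cannot be told apart within such a region.

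The TSS regions of the other 3 members were narrower and in neither list. The region of *Irx1* was 8100 bp wide (chr13:72094806-72102905) and covered the whole gene. That of *Irx2* was 6120 bp (chr13:72764686-72770805) and covered 84.5% of the gene. That of *Irx6*, at 3500 bp (chr8:95196626-95200125), covered 29.1% of the gene and lay near the median of 3640 bp over coding genes (quartiles 2340 and 5660 bp). In each of the 3 paralogous pairs, then, the wider TSS region was in the decreased H3K4me2 list and the narrower was not. The listed regions were also the widest TSS regions of the family. Over all coding genes the listed share rose with width, from 26.9% at 2000 to under 4000 bp to 46.3% at 8000 bp or more. The pairs were 10660 and 8100 bp for *Irx3* and *Irx1*, 17640 and 6120 bp for *Irx5* and *Irx2*, and 14600 and 3500 bp for *Irx4* and *Irx6*. The wider member belonged to IrxB in the first and second pair and to IrxA in the third.

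Of all coding genes with the main TSS in a merged region, 28.7% had that region in the decreased H3K4me2 list. The Irx share was 3 of 6 (Wilson interval 18.8% to 81.2%), an interval that holds the background. Width moved with it. Among these genes the H3K4me2 share was 26.9% at 2000 to under 4000 bp, the class of *Irx6*, 36.2% at 4000 to under 8000 bp, the class of *Irx2*, and 46.3% of 1830 genes at 8000 bp or more. The widest class held 4 members, of which *Irx3*, *Irx4* and *Irx5* were in the list and *Irx1* was not (Wilson interval 30.1% to 95.4%). No main TSS region of the 6 was in the decreased H3K4me1 list, which held that of 0.664% of coding genes. The part of width in these calls was not tested.

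**Figure D3:**
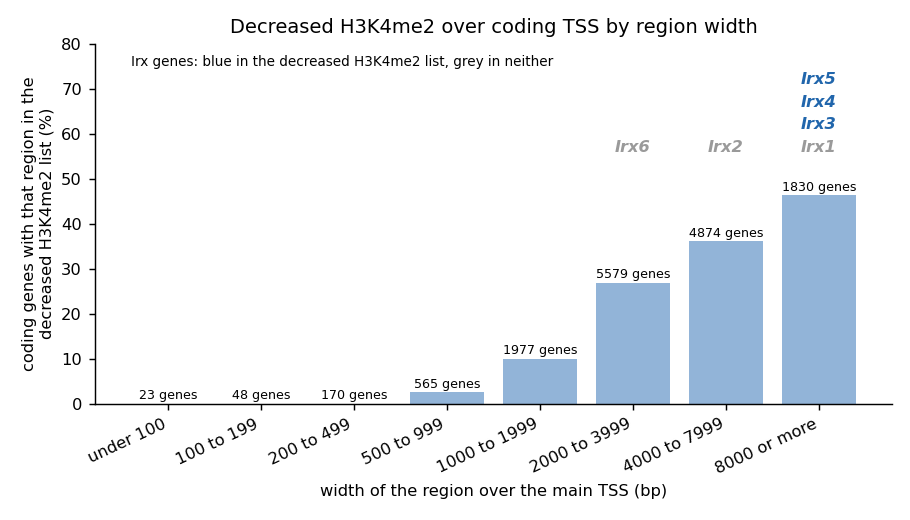
Share of protein-coding genes whose main TSS region was in the decreased H3K4me2 list (%), by the width of that region (bp), with the number of genes over each bar. Irx genes are named above the bar of their class, blue where the region was in the list and grey where it was not. The height of a name has no meaning. The share rises from 0 below 500 bp to 46.3% at 8000 bp or more, where *Irx3*, *Irx4*, *Irx5* and *Irx1* lie.

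*Irx4* was the member with calls for both marks, in separate regions, and its window was lopsided. Upstream of the TSS lay 7 regions of 80 to 200 bp that covered 860 bp. Downstream, beyond the TSS region, lay 9 regions that covered 21400 bp, and 6 of them were at least 1 kb wide. Of these, the region at chr13:73412906-73416905 was 4000 bp wide and began 14961 bp downstream of the TSS, and that at chr13:73425206-73429245 was 4040 bp wide and began at 27261 bp. Both were in the decreased H3K4me1 list. Wide regions of 4160 and 4640 bp farther out, beginning 36781 and 43481 bp from the TSS, were in neither list, nor were those of 2220 and 1000 bp in between. The regions of 4040, 4160 and 4640 bp lay nearer to another gene's TSS, at 26057, 16417 and 9237 bp. Which gene these downstream regions belong to was not tested. In the genome, 3.75% of merged regions of 4000 to under 8000 bp had lower H3K4me1.

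The other members had no such group of wide flanking regions. *Irx3* had 2 of at least 1 kb upstream, of 3280 and 2740 bp, and 1 downstream of 1640 bp. *Irx5* had 2 upstream, of 2920 and 1660 bp, and none downstream, where 3 regions covered 980 bp. *Irx2* had 1 upstream and 2 downstream, the widest of 2960 bp. *Irx1* had 1 on either side, of 1000 and 1040 bp. *Irx6* had 3, all downstream. The widest, of 3100 bp, began 47138 bp from the *Irx6* TSS but lay 4452 bp from another annotated TSS. None of these flanking regions was in a decreased list. The third region with lower H3K4me1, at *Irx6*, was of another kind, only 180 bp wide and 4503 bp upstream of the TSS. None of its 32-base words occurred again in the assembly. In the *Irx4* regions with lower H3K4me1, 7.81% of the words of the nearer and 0.324% of those of the farther were repeated. In the TSS regions with lower H3K4me2 the share was 2.32% at *Irx3*, 0.357% at *Irx4* and 0.432% at *Irx5*.

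At least 1 region with lower H3K4me1 was present near 2 of the 6 genes, *Irx4* and *Irx6*, against 15.2% of protein-coding genes by the same rule. For H3K4me2 this was 3 of 6, against 47.0% of genes. Without the 6 main TSS regions, 93 Irx regions remained. Of these, 3 (3.23%) had lower H3K4me1, against 0.761% of all merged regions. Lower H3K4me2 was listed for 0 of the 93 (upper Wilson bound 3.97%), against 1.87% of all merged regions. Both background shares take in regions over TSS, so they are not matched for place. Of coding genes with the main TSS in a region, 28.7% had that region in the H3K4me2 list. The H3K4me2 share away from TSS was not measured.

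CpG density was high over the TSS regions. Whole regions held 3.39 CpG per 100 bp at *Irx4*, 4.10 at *Irx5* and 4.96 at *Irx3*, all above the median of 2.38 for the decreased H3K4me2 list and 2.89 for the 13443 regions over a coding main TSS. Uncalled TSS regions lay in the same range or above it, with 3.66 at *Irx6*, 4.70 at *Irx1* and 5.74 at *Irx2*. The H3K4me1 regions held 0.700 and 1.26 CpG per 100 bp at *Irx4* and 1.11 at *Irx6*, with a median of 1.23 for the decreased H3K4me1 list and 1.14 over the Irx regions. Among the Irx TSS regions, the called and uncalled ones thus overlapped in CpG density but not in width. Over all coding genes, 46.3% of TSS regions of 8000 bp or more were in the H3K4me2 list, and the rest of that class were not.

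**Figure D4:**
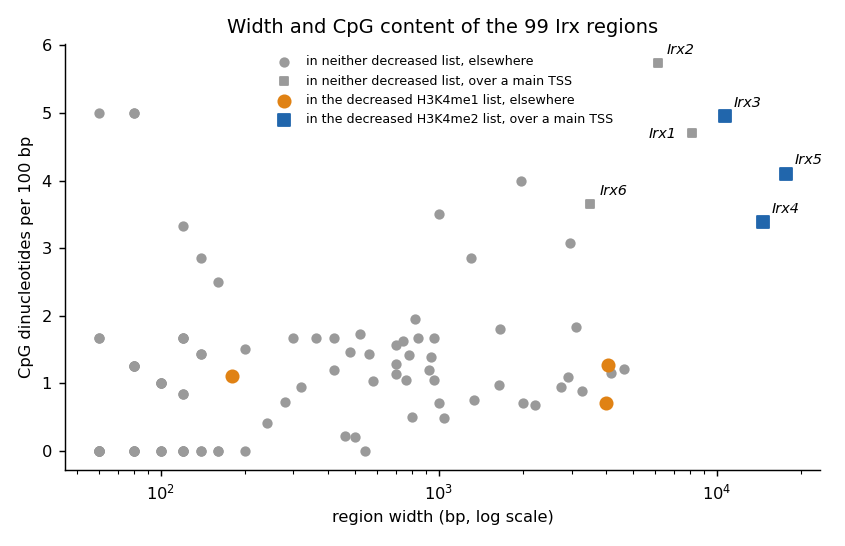
CpG dinucleotides per 100 bp against width (bp, log scale) for the 99 Irx regions, squares for regions over a main TSS and circles for the others, coloured by decreased list. The 3 blue squares lie farthest to the right, between 10660 and 17640 bp. The orange circles lie at 0.700 to 1.26 CpG per 100 bp among uncalled regions.

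Between the gene windows, the clusters hold long stretches with no Irx gene, known in other tissues to carry conserved enhancers. Here they held 289 merged regions up to 7540 bp wide, 58 of them of at least 1 kb, and 0 were in either decreased list (upper Wilson bound 1.31%). At the shares of their width classes, 1.94 would be in the H3K4me1 list and 4.37 in the H3K4me2 list. Those class shares take in regions over TSS. Among coding genes with a main TSS region of 4000 to under 8000 bp, 36.2% had it in the H3K4me2 list. Of all merged regions in that class, 16.4% were listed. The 2 figures are thus not matched for place, and the share away from TSS was not measured. The stretch from *Irx3* to *Irx5* was the most densely marked, with 14.2% of its bases in regions, followed by *Irx2* to *Irx4* with 10.7% and *Irx1* to *Irx2* also with 10.7%, and *Irx5* to *Irx6* with 8.09%. The genome-wide value was 11.6%. Over the whole clusters, 13% of IrxA and 15.1% of IrxB lay in merged regions. Just beyond the window of *Irx4*, a region of 4060 bp with lower H3K4me2 began 64901 bp downstream, over the TSS of *Ndufs6*, a subunit of mitochondrial complex I.

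**Figure D5:**
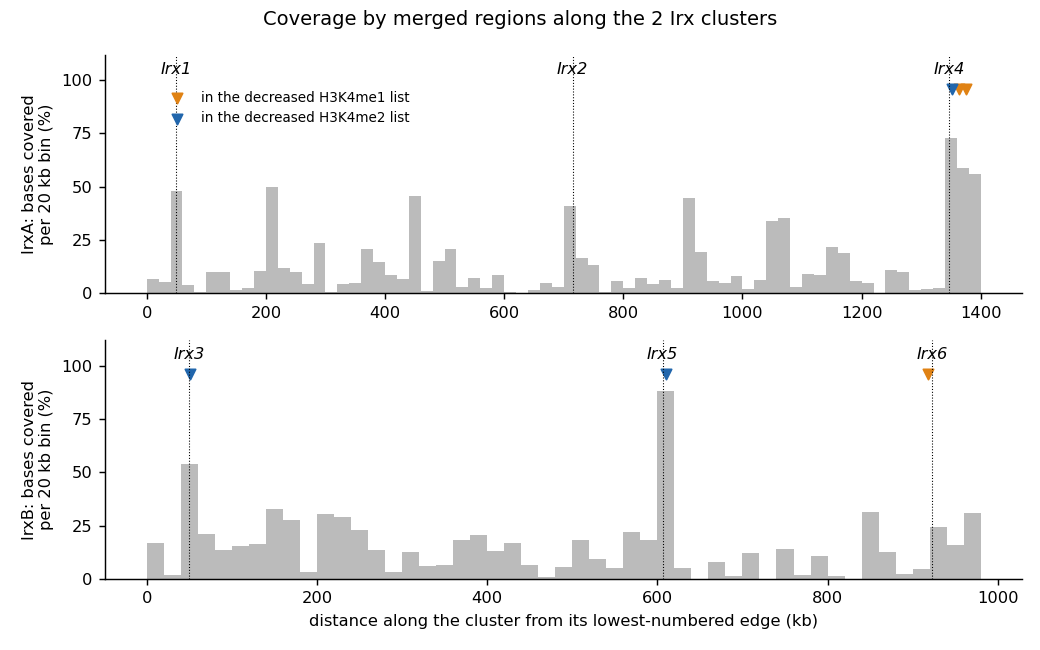
Share of bases in merged regions (%) per 20 kb bin along IrxA and IrxB, by distance from the edge with the lowest position (kb). The last bin of each cluster is shorter. Dotted lines mark the main TSS and triangles the centres of decreased regions. The highest bins are at *Irx5* (88.2%) and *Irx4* (73.0%), and no triangle lies between the gene windows.

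Beyond the *Irx3* end of IrxB lie *Fto*, which encodes an RNA demethylase and whose introns are known to contact *Irx3*, and the cilium gene *Rpgrip1l*. They share 1 TSS region of 4500 bp, in neither list. Of the 106 regions counted for *Fto*, 47 of them at least 1 kb wide, 4 had lower H3K4me1, against 0.761% of all merged regions. All 4 lay in its introns, with widths of 1580, 1660, 3200 and 100 bp, at 477.2, 452.9, 435.5 and 395.5 kb from the TSS of *Irx3*. The first 3 of these are also counted for *Rpgrip1l*, whose TSS is within 50 kb. Neither gene had a region with lower H3K4me2.

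The other genes of the pathway were counted by the same rule, and their counts stand beside the 28.7% of all coding genes, or 46.3% at 8000 bp or more, with the main TSS region in the decreased H3K4me2 list. At least 1 region by this rule, at the TSS or away from it, had lower H3K4me1 for 15.2% of coding genes. For lower H3K4me2 this was 47.0%. Nothing particular to a list was tested. Of 11 TALE homeobox genes outside the family, 4 had the main TSS region in the decreased H3K4me2 list. These were *Meis2* (25040 bp), *Meis1* (18200 bp), *Pbx2* (9960 bp) and *Pbx3* (7000 bp), which encode partners of homeodomain proteins on DNA. *Pbx4*, *Tgif2* and *Mkx* each had 1 such region away from the main TSS, and lower H3K4me1 was listed for 2 regions at *Pbx4* and 1 each at *Pbx3*, *Pknox1* and *Mkx*. The median TSS region width was 8620 bp in this list and 9380 bp in the Irx genes. Of 7 genes known to act upstream of or beside Irx genes in the heart, 6 had the TSS in a region and 4 of these regions were in the H3K4me2 list, those of the cardiac transcription factors *Gata4* (48800 bp), *Hand2* (29560 bp), *Tbx5* (25320 bp) and *Nkx2-5* (22900 bp). The tissue label itself could not be checked, since positions alone carry no level of a marker. *Rxra* (20900 bp) and *Hand1* (7580 bp) were in neither list by the TSS region, but *Hand1* had 2 other regions with lower H3K4me1 and *Rxra* had 1. Lower H3K4me1 was also listed away from the main TSS for 2 regions at *Tbx5* and 1 each at *Nkx2-5* and *Gata4*. Of 6 genes known downstream of Irx factors, only *Kcnd2* had its TSS region (2580 bp) in the H3K4me2 list. The widest TSS region of these, 13920 bp at the myosin gene *Myh7*, was in neither list. The conduction gene *Gja5* had 1 region with lower H3K4me1, *Bmp10* had 1 region with lower H3K4me2, and *Nppa* had 1 of each, all away from the main TSS region. No TSS region of these lists was in the H3K4me1 list.

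Protein-coding genes most like the mean of the 6 members, in the number of regions, covered length, median width and TSS region width, included *Dnajc14*, *C330006D17Rik*, *Tspyl4* and *Rabggtb*, at distances of 0.0496 to 0.0896 on the scale of standardised log2 values. The members themselves lay at 0.281 for *Irx5* to 0.749 for *Irx2*. Of the genes named as most alike, the TSS regions of *C330006D17Rik* and *Tspyl4* were in the decreased H3K4me2 list.

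The sequences were searched on both strands for the Iroquois site ACANNTGT, which is its own reverse complement. They were also searched for the core letters AGGTGT of T-box factors. The letters for GATA4 and its relatives were AGATAA. Those for the homeodomain factor encoded by *Nkx2-5* were TNAAGTG. Matches of different motifs may overlap. None of the 6 printed runs held a match. The same upstream window of *Irx1*, not printed, held 1 match to the Iroquois letters. Of the same windows upstream of coding genes, 7.38% held the Iroquois letters, 13.8% the T-box letters, 11.54% the GATA letters and 12.2% the NKX2-5 letters. For the runs from H3K4me1 regions, windows at the centre of merged regions are the nearer background. Of 185302 such windows, 11.8%, 15.1%, 19.65% and 17.2% held these letters, in the same order. Over the 99 Irx regions the Iroquois letters occurred 0.387 times per kb, against 0.434 per kb of all merged regions, with 5 matches in the TSS region of *Irx5*, 3 in that of *Irx4* and 1 in that of *Irx3*. The uncalled TSS regions held 4 matches at *Irx1*, 1 at *Irx2* and 0 at *Irx6*.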

How the data were processed

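E11.5 control and mutant hearts were profiled by ChIP-Seq for H3K4me1, H3K4me2 and H3K4me3 (3 replicates each, with inputs). Per the labels, reads were aligned to mm9, and the submitters' processing notes name CASAVA 1.8.2, FastQC, Bowtie2, Bowtie and SAMtools. The authors called peaks, merged them over replicates and marks, and deposited 1 merged list and lists of lower H3K4me1 and lower H3K4me2, with positions only. The peak caller, its settings and the test behind the decreased lists are not given in the sources used here. The study states a false discovery rate for both lists, but the deposited H3K4me2 list, with 6699 regions, is longer than the number it gives, so whether that rate applies to all of them is uncertain. Depth is unknown. Changes in H3K4me3 were not analysed here.

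Positions were read as 1-based coordinates and joined to genes of GENCODE vM1 (NCBIM37, the same assembly), with an overlap of at least 1 bp. The main TSS is the 5′-most annotated one. Python 3.11.15 with pandas 2.3.3, scipy 1.17.1 and pysam 0.24.0 was used, and the assignment was tested on simulated regions. Shares carry 95% Wilson intervals, which cover counting error only. No test over regions was made. The members and gene lists were chosen with earlier results of these data known. Named genes were the 6 members, genes with a decreased region or the widest TSS region of each list, and the nearest genes. A few genes that met these criteria are left out, and list counts are given without them. Sequences end at the base before the TSS, in place of windows centred on it, so that they hold no untranslated sequence. Alternatives were other windows, width minimums and match rules.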

Additional observations from a re-analysis of the deposited data

How the results depend on the processing

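The counts depended on the window. In place of 99 regions there were 21 within 10 kb, 205 within 100 kb, 8 over gene bodies alone and 43 of at least 500 bp, whereas 98 had their midpoint inside and 99 were found from the 5′-most TSS alone. The median width of 300 bp became 920 bp within 10 kb and 1300 bp at a minimum of 500 bp, and 340 bp within 100 kb. The H3K4me1 share of 3.03% ranged from 1.46% within 100 kb to 6.36% by covered base pairs, and was 0.773% over the whole clusters with the stretches between windows. The H3K4me2 share of 3.03% was 14.3% within 10 kb, 0.773% over the whole clusters and 33.2% by covered base pairs. Within 70 kb, a window chosen after seeing the data, it was 2.68% with the region at *Ndufs6*, and the H3K4me1 share was 2.01%. Matching by an overlap of 1 bp gave the same 3.03% for each mark. The fall over whole clusters follows from their construction, which adds regions without adding a call. No paired analysis was possible because the lists join all replicates, and for the same reason no replicate could be left out in turn.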
